A study of Mus musculus with 6 samples.

Results

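Within the islets of β cell–specific 14-3-3ζ–KO (β14-3-3ζ–KO) mice, β cells in which 2 or more *Ywhaz* molecules were counted were compared with β cells of the same mice in which none was counted. The members were found by a rule in each of the 3 KO libraries. A β cell had more than 3000 detected genes, at least 20000 unique molecular identifiers (UMIs, each marking 1 captured RNA molecule), at most 10% of UMIs from mitochondrially encoded genes, at least 25% from *Ins1* and *Ins2*, and under 0.5% from each of *Gcg*, *Sst*, and *Ppy*. Of 2361 KO β cells that passed, out of 22370 KO barcodes, 359 had 2 or more *Ywhaz* UMIs (*Ywhaz*-positive), 1292 had 0 (*Ywhaz*-negative), and 710 had 1 and entered neither group. The cells were selected on their measured *Ywhaz* UMIs, so its values are given as a description and without a test.

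The libraries came from islets of 3 β14-3-3ζ–KO mice and 3 WT mice on a C57BL/6J background, aged 12 to 14 weeks, with 1 Chromium 3′ library per mouse (43445 barcodes in all). KO mice carried *Ins1*CreThor, a Cre recombinase inserted in the *Ins1* locus and therefore limited to cells that transcribe *Ins1*, together with *Ywhaz* alleles in which LoxP sites flank exon 4. WT littermates also carried Cre. Islets recovered overnight in culture, were dispersed, and were depleted of dead cells before loading, so every value describes cells that survived these steps.

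14-3-3ζ is a small scaffold protein of a conserved family whose members form dimers and bind phosphorylated serine or threonine in partner proteins, which changes where the partners sit in the cell or whether they are active. *Ywhaz* encodes the ζ isoform, and *Ywhab*, *Ywhae*, *Ywhag*, *Ywhah*, *Ywhaq*, and *Sfn* encode the others. In β cells the family is known for effects on insulin secretion, survival, and proliferation. Cre recombination seldom reaches every cell, and in the study, KO β cells in which the deletion was judged incomplete were removed before the genotypes were compared. The comparison below describes how cells with *Ywhaz* transcripts differed from their *Ywhaz*-negative neighbours.

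*Ywhaz* lies on the minus strand of chromosome 15 (chr15:36770770-36796929, GRCm38). In the annotated transcript with 7 exons, exon 4 covers chr15:36776246-36776369 and is 124 bp of coding sequence, which is not a multiple of 3. The study names the floxed exon only by its number, and whether it used the numbering of this transcript could not be checked. In the coding transcripts with 6 exons the same stretch is exon 3. It is printed here as the stretch taken to be removed by recombination, as the transcript reads 5′ to 3′:
*Ywhaz* exon 4: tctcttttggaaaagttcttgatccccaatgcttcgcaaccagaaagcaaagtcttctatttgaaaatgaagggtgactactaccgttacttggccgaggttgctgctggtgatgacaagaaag
A 3′ library captures RNA from its poly(A) end, which for this transcript is in exon 7 (chr15:36770770-36772777). A *Ywhaz* UMI therefore does not show whether exon 4 was present in the molecule, and a cell with 2 *Ywhaz* UMIs is not shown to have kept an intact allele.

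*Ywhaz*-positive cells were a minority in every KO library and the rule in every WT library. They made up 17.3% of gated β cells in KO library 1 (95% Clopper-Pearson interval 14.8% to 19.99%), 10.3% in KO library 2 (8.09% to 12.8%), and 17.1% in KO library 3 (14.6% to 19.8%), a mean of 14.9% ± 3.97 (SD, n = 3 mice). In WT libraries the same rule took 91.4%, 94.2%, and 94.3% of cells. Cells with no *Ywhaz* UMI were 51.0%, 62.4%, and 52.4% of KO β cells, but only 17, 7, and 12 cells in the WT libraries. Intervals cover counting error only. Summed over all gated cells, *Ywhaz* stood at 19.0, 17.4, and 19.7 CPM (its UMIs scaled to a fixed total for the cells summed) in KO libraries and at 132.6, 174, and 164.3 CPM in WT libraries, so the label of each library held for the targeted gene.

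Among KO cells the number of *Ywhaz* UMIs fell off steeply from 0, without a second peak that would separate cells with and without the transcript. A sparse upper tail reached 13, 6, and 20 UMIs in KO libraries 1 to 3. Of the 359 *Ywhaz*-positive cells, 256 (71.3%) had exactly 2 UMIs, 82 had 3 or 4, and 21 had 5 or more. The *Ywhaz*-positive cells were 15.2% of the KO β cells and held 928 of 1638 *Ywhaz* UMIs (56.7%). When each cell was thinned at random to 20000 UMIs, 6.90%, 6.11%, and 6.71% of KO β cells still had 2 or more, against 68.5%, 85.2%, and 80.8% of WT β cells. The variance of the thinned count was 1.21, 1.20, and 1.29 times its mean in KO libraries 1 to 3 (a Poisson count has a ratio of 1). Without the cells with 5 or more thinned UMIs it was 1.03, 1.13, and 1.17 times. Leaving out the highest counts lowers this ratio by itself. In WT libraries 1 to 3 the same cut took it from 1.59, 1.20, and 1.33 to 0.871, 0.546, and 0.668. The mean thinned count was 2.79, 3.49, and 3.43 in WT and 0.408, 0.356, and 0.393 in KO, so the cut left out far more WT cells. The fall in WT therefore does not measure how much the cut by itself lowered the KO ratios. These counts did not mark the *Ywhaz*-positive cells as a separate class, so the label "keeping *Ywhaz*" is not used. The cells are named here by their UMI count. Whether some of the 21 cells with 5 or more UMIs had kept an intact allele was not tested. Because other islet cell types also transcribe *Ywhaz*, no cell type gave a level of free *Ywhaz* RNA in the droplets, and its part in counts of 1 or 2 UMIs was not tested.

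**Figure D1:**
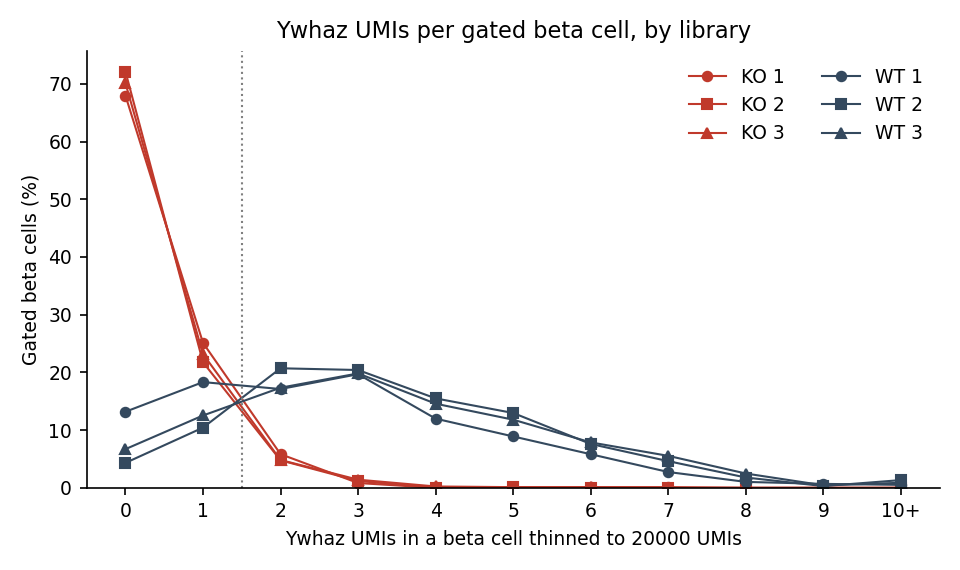
Share of gated β cells (y axis, percent) with each number of *Ywhaz* UMIs (x axis) after each cell was thinned to 20000 UMIs, with 1 line per library, KO in red and WT in dark blue; the last position holds 10 or more UMIs and the dotted line marks the threshold of 2. KO cells pile up at 0 and 1 UMI and 6.11% to 6.90% lie right of the line, whereas 68.5% to 85.2% of WT cells do.

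The share of *Ywhaz*-positive cells rose with the number of UMIs in a cell, which is why cells were matched before genes were compared. In KO library 1 it was 10.6% of cells with 20000 to 30000 UMIs, 18.2% of cells with 30000 to 40000, and 22.3% of cells with 40000 or more. The corresponding shares were 8.50%, 10.2%, and 19.5% in KO library 2 and 11.2%, 13.1%, and 24.3% in KO library 3. Each *Ywhaz*-positive cell was paired with the *Ywhaz*-negative cell of its own library nearest in total UMIs, within 5%. This gave 142, 69, and 138 pairs (349 of the 359 cells), with median UMIs of 39353.5, 29962, and 42661 in *Ywhaz*-positive cells and 39340, 29963, and 42611 in their partners.

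Cells just outside and just inside the threshold lay close together. Cells with 1 *Ywhaz* UMI had a median insulin share (*Ins1* plus *Ins2*) of 40.5% of UMIs and those with exactly 2 had 38.9%, against 41.9% in cells with 0. The mean share of UMIs from markers of non-endocrine islet and blood cell types was 0.0736% with 0 *Ywhaz* UMIs, 0.0796% with 1, 0.0868% with 2, 0.109% with 3 or 4, and 0.257% with 5 or more. These values pool the libraries, which did not all follow them. In KO library 2 the 15 cells with 3 or 4 UMIs were at 0.217%, next to 0.231% in its 3 cells with 5 or more, whereas in KO library 3 the share went from 0.0825% with 2 UMIs to 0.0747% with 3 or 4 and 0.254% with 5 or more. The insulin share of KO library 2 was 43.7% with 1 UMI and 44.6% with 2. The marker share includes ductal markers, some of them also transcribed by β cells, and these made up most of it in *Ywhaz*-negative cells. In the matched *Ywhaz*-negative cells of KO libraries 1 to 3, ductal markers summed to 605, 523, and 586 CPM. The mean share of all the markers there was 0.0653%, 0.0723%, and 0.0675%.

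Insulin was part of the gate, so the label of a β cell was checked on other markers, in CPM of the matched sums before scaling. *Nkx6-1*, a β cell transcription factor, was at 175, 195, and 172.5 CPM against 164.1, 173.1, and 175.3 CPM, and *Mafa*, which drives insulin transcription, was at 483, 772, and 517 CPM against 497, 709, and 522 CPM. For both genes the ranges of the groups overlapped. They are 2 of 10 listed β cell markers, insulin genes included. In the edgeR test described below, 7 of the 10 were lower in all 3 libraries, against 15.1% of all genes tested. Only *Ins1* and *Ins2* were called lower, and 0 of the 10 had a positive log2 fold change. Their median was -0.12, or -0.02 without the TMM factors explained below.

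Transcripts of other cell types were also present, and for most types their sums were higher in the *Ywhaz*-positive cells. The 12 endothelial markers together stood at 62.1, 155.3, and 191 CPM in *Ywhaz*-positive cells of KO libraries 1 to 3 and at 9.98, 9.04, and 3.71 CPM in their matched partners, which is 6.22 to 51.5 times higher. Of the endothelial UMIs of the *Ywhaz*-positive cells, 34.8%, 33.7%, and 47.6% came from a single cell of each library, and the share of cells with at least 1 did not follow the sums. It was 28.9%, 39.1%, and 28.3% in *Ywhaz*-positive and 35.9%, 21.7%, and 14.5% in *Ywhaz*-negative cells. All 12 markers had a UMI in the *Ywhaz*-positive cells of each library. In the *Ywhaz*-negative cells, *Tie1* was at 0 in all 3 libraries, *Ly6c1* in 2, and *Plvap*, *Flt1*, and *Esm1* in 1 each. The 12 macrophage markers were 1.44 to 4.66 times higher (47.8 to 278 CPM against 33.2 to 59.7 CPM), although in KO library 1 fewer *Ywhaz*-positive cells had one of their UMIs (61.3% against 71.8%), and the 10 mesenchymal markers 1.498 to 32.5 times higher (3.04 to 21.0 CPM against 0.645 to 3.62 CPM). T cell markers reached 106.5 CPM in KO library 2 and 1.76 and 13.6 CPM in the others. Ductal markers, of which *Krt7*, *Krt8*, and *Krt18* are also transcribed by β cells in these libraries, differed less (1.05 to 1.28 times). Delta cell and PP cell markers were 1.01 to 1.71 and 0.999 to 2.43 times as high. Acinar markers were lower in KO library 2 (42.9 against 61.5 CPM, 0.698 times) and higher in the others, erythroid markers were 0.807 to 1.74 times and alpha cell markers 0.975 to 1.16 times as high.

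Cells highest in these markers were unevenly divided between the groups. Of the *Ywhaz*-positive cells, 63 of 359 (17.5%) fell in the tenth of their library's β cells with the highest share of non-endocrine marker UMIs, against 93 of 1292 *Ywhaz*-negative cells (7.20%). Ductal markers count in this ranking, so a high rank can also come from transcripts that β cells make. Scrublet, which scores each barcode by its likeness to simulated pairs of cells, placed 31 *Ywhaz*-positive cells (8.64%) and 34 *Ywhaz*-negative cells (2.63%) among the likely doublets, and 18 of the 31 were in KO library 2. Either mark applied to 73 *Ywhaz*-positive cells (20.3%), 111 *Ywhaz*-negative cells (8.59%), and 10 of the 21 cells with 5 or more *Ywhaz* UMIs. Gene results below are therefore also given without such cells, a setting chosen after seeing the data. There the likely doublets were removed first and the top 10% by markers was taken from the rest, which left out 75 *Ywhaz*-positive (20.9%) and 141 *Ywhaz*-negative cells (10.9%), called the marked cells below. Their part in the results was measured only in this way, and a β cell that shared its droplet cannot be told apart from a β cell with RNA of other cells around it.

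**Figure D2:**
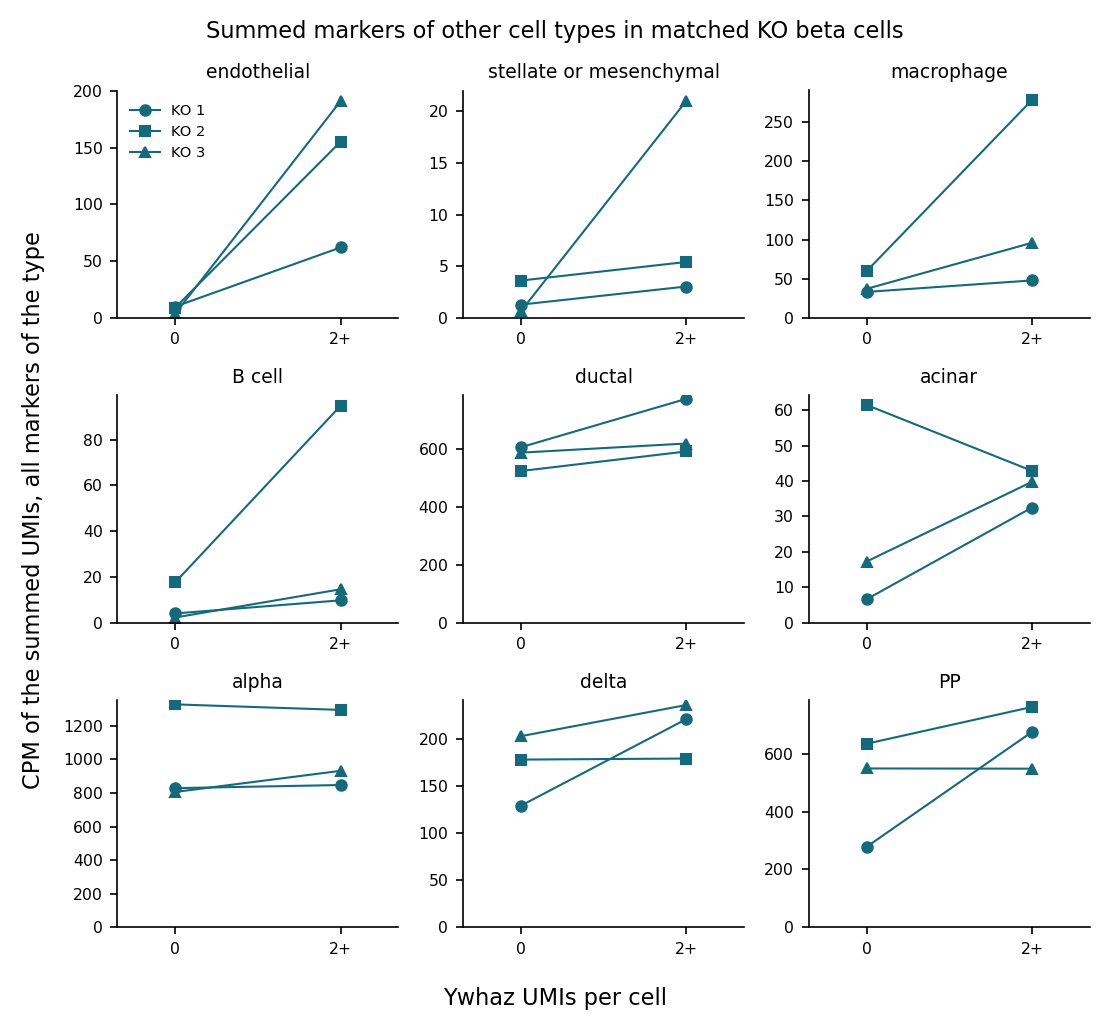
Summed CPM (y axes, from 0) of all markers of 9 other cell types in matched KO β cells with 0 or with 2 or more *Ywhaz* UMIs (x axes), with 1 line per KO library. Endothelial markers rise in all 3 libraries, from 3.71 to 9.98 CPM to 62.1 to 191 CPM, whereas alpha cell markers stay between 806 and 1328 CPM.

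The matched cells differed in how their UMIs were spread over genes. After thinning to 20000 UMIs, the median *Ywhaz*-positive cell had 4279, 3921, and 4275.5 detected genes in KO libraries 1 to 3, and the median *Ywhaz*-negative cell had 4094.5, 3759, and 4110. The difference was 170.7 ± 12.1 genes (SD, n = 3) and was positive in 3 of 3 libraries. Insulin made up 38.2%, 43.6%, and 38.2% of UMIs in *Ywhaz*-positive and 42.3%, 48.4%, and 41.4% in *Ywhaz*-negative cells, a difference of -4.02 ± 0.868 percentage points. With 3 pairs a 2-sided exact sign-flip permutation test cannot give a p below 0.25, and both measures had that p. The mitochondrially encoded share did not differ beyond its spread (4.27%, 4.46%, and 4.56% against 4.27%, 4.20%, and 4.63%; difference 0.0657 ± 0.173 points, exact p = 0.75). When cells were matched on UMIs other than insulin, the differences shrank to 25.3 genes and -0.576 points, so the size of both depended on what was held equal.

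UMI counts were then summed per library and group and compared gene by gene with the library as a block. Of 9786 genes tested, with *Ywhaz* left out, 64 (0.654%) were called by edgeR's quasi-likelihood test at a Benjamini-Hochberg FDR under 0.05 and a log2 fold change above 0.1 in size. *Ywhaz*-positive cells were higher for 55 of them (0.562% of genes tested) and lower for 9 (0.092%). Without TMM factors, which centre the fold changes of most genes near 0, the split was 163 higher and 2 lower, and the median of all genes moved from -0.0014 to 0.10 on the log2 scale. Small changes below are relative to that centre. CPM values from here on are of the summed UMIs scaled by TMM, and fold changes are on the log2 scale with their standard error (SE). An unadjusted p under 0.05 was found for 710 of the 9786 genes, the count against which those of the lists below can be read. The main test rested on few samples, and DESeq2 called 7 genes, all among the 64: *Txnip*, *Stmn1*, *S100a6*, *Tmsb10*, and *Col4a1* higher and *Ins1* and *Ins2* lower (*Tmsb10*, an actin-binding peptide, is outside the rule for naming genes).

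*Txnip* was called under all alternatives run except the pair named below. The gene (chr3:96557957-96561883, plus strand, GRCm38) encodes thioredoxin-interacting protein, an α-arrestin induced by glucose that limits glucose uptake and thioredoxin. Its level was 121.1, 79.4, and 86.3 CPM in *Ywhaz*-positive cells of KO libraries 1 to 3 and 80.2, 41.1, and 53.6 CPM in their *Ywhaz*-negative partners. It was higher in each library, although the *Ywhaz*-negative value of KO library 1 lay just above the *Ywhaz*-positive value of KO library 2. The log2 fold change was 0.68 ± 0.0706 (SE, edgeR adjusted p = 1.68e-10). No single cell held more than 6.08% of the *Txnip* UMIs, and without the cells high in other-type markers or doublet score the change was 0.53 and still called. It was not called with 3 or more *Ywhaz* UMIs (0.50) or without the block (0.69). *Arrdc3*, another α-arrestin and named here after its values were seen, was at 30.6, 12.6, and 26.7 CPM against 16.2, 13.004, and 14.9 CPM (0.79 ± 0.13, edgeR adjusted p = 3.54e-05). It was higher in 2 of the 3 libraries, and 18.5% of its UMIs came from 1 cell.

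Insulin transcripts were lower in the *Ywhaz*-positive cells. *Ins2* (chr7:142678656-142743381, minus strand) was at 315194, 401474, and 309220 CPM against 369938, 474120, and 351453 CPM, a log2 fold change of -0.21 ± 0.0292 (edgeR adjusted p = 6.82e-07). *Ins1* (chr19:52264297-52265476, plus strand), whose locus holds the inserted Cre in these mice and shares much of its sequence with *Ins2*, was at 57713, 75782, and 55811 CPM against 71345, 82763, and 67327 CPM (-0.23 ± 0.036, edgeR adjusted p = 1.85e-05). Both genes were lower within each library, while KO library 2 was higher than the others in both groups. The pair was also called without the marked cells (-0.20 and -0.18). The calls depended on the cells and libraries used. Neither gene was called with unmatched or thinned cells, with 2 to 4 UMIs, with 3 or more UMIs, or without KO library 3 (*Ins2*, -0.23; *Ins1*, -0.21), and *Ins1* was not called without KO library 1 (-0.19) or with 1 or more UMIs. When cells were matched on UMIs other than insulin, the values were -0.02 for *Ins2* and 0.00 for *Ins1*, and neither was called. *Iapp*, which encodes the amyloid peptide secreted with insulin, was at 32652, 37813, and 31179 CPM against 35813, 42875, and 33104 CPM and did not pass (-0.13 ± 0.0369, edgeR adjusted p = 0.121).

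The rest of the β cell program did not pass the test. Of 30 genes of β cell identity, only *Ins1* and *Ins2* were called, and the median log2 fold change of the list was -0.08, or 0.03 without TMM factors. Of the 30, 7 had an unadjusted edgeR p under 0.05 and 14 were lower in all 3 libraries, against 15.1% of all genes tested. Of 23 tested genes of the secretory granule and prohormone processing, 0 were called by edgeR, 7 had an unadjusted p under 0.05, and the median was -0.07, or 0.03 without TMM factors. DESeq2 called none of them. *Slc30a8*, the zinc transporter of insulin granules, was at 231, 218.4, and 235 CPM against 263, 264, and 245 CPM, without overlap (-0.16). *Scg5*, which encodes the chaperone of prohormone convertase 2, had levels that did not overlap either (446, 448, and 429 CPM against 477, 549, and 492 CPM), with a log2 fold change of -0.18. Levels that did not overlap were found for 7.79% of all genes tested. Of 3 tested genes of immature β cells or of genes normally silent in them, *Cd81*, a tetraspanin reported on immature β cells, was called (29.2, 44.1, and 30.4 CPM against 23.7, 30.7, and 14.7 CPM, 0.62 ± 0.117, edgeR adjusted p = 0.00054). It was not called without the marked cells (0.55) or without KO library 3 (0.38).

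**Figure D3:**
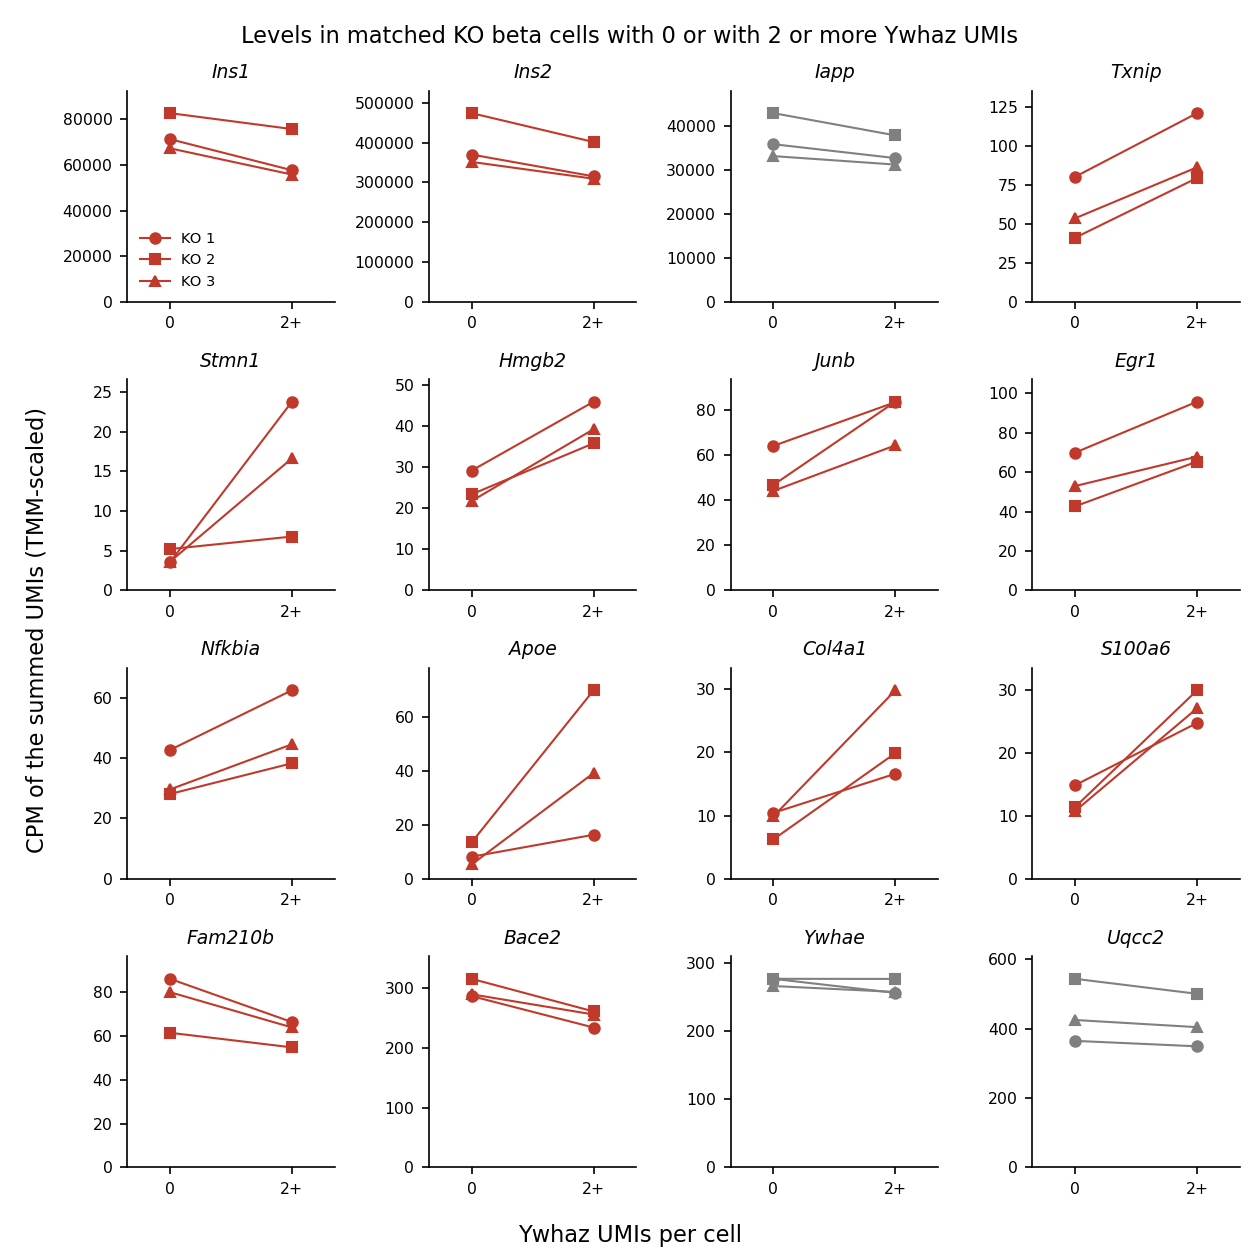
TMM-scaled CPM (y axes, from 0) of 16 named genes in matched KO β cells with 0 or with 2 or more *Ywhaz* UMIs (x axes), with 1 line per library, red for called genes and grey for the rest. *Txnip* rises in each library, from 80.2, 41.1, and 53.6 CPM to 121.1, 79.4, and 86.3 CPM, whereas *Ywhae* and *Uqcc2* are nearly level.

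Immediate early genes, which are transcribed within minutes of a stimulus or of tissue dissociation, were called in the higher direction only. Of 26 listed genes, 16 were tested, 6 were called higher and 0 lower, and the median log2 fold change was 0.46 (all genes tested, -0.0014). Of the 16, 12 were higher in all 3 libraries, against 12.8% of all genes tested. *Junb*, an AP-1 subunit, was at 83.6, 83.8, and 64.4 CPM against 64.2, 46.8, and 44.2 CPM, so the groups did not overlap (0.52 ± 0.0774, edgeR adjusted p = 5.13e-06). *Egr1*, a zinc finger transcription factor, was at 95.8, 65.4, and 67.9 CPM against 69.9, 42.7, and 52.9 CPM (0.44 ± 0.0735, edgeR adjusted p = 4.78e-05). It was higher within each library, with overlapping ranges.

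*Jun* encodes the AP-1 partner of *Fos* and was at 72.6, 39.2, and 52.7 CPM against 63.8, 23.4, and 29.8 CPM (0.48). *Ier3*, a stress-induced survival gene, was at 13.5, 19.9, and 16.4 CPM against 7.86, 10.9, and 7.99 CPM (0.91). The other called members, *Klf6* (0.62) and *Dusp1* (0.58), encode a zinc finger factor and a phosphatase of MAP kinases and are named after their values were seen. *Fos* itself, named after its value was seen, was not called (0.36). Without the cells high in other-type markers or doublet score, the list median was 0.25 and *Egr1* was the only member called (0.34). *Egr1* was in turn not called among cells with at most 5% mitochondrial UMIs (0.06). *Jun*, *Ier3*, *Klf6*, and *Dusp1* were not called without KO library 3 (0.29, 0.81, 0.65, and 0.39), nor *Dusp1* without KO library 2 (0.50). *Nfkbia*, which encodes the inhibitor IκBα and is switched on by NF-κB, stood outside the list and was named after its values were seen. It was at 62.4, 38.3, and 44.5 CPM against 42.7, 28.1, and 29.6 CPM (0.56 ± 0.0892, edgeR adjusted p = 2.43e-05), and at 0.48, still called, without the marked cells.

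The called genes of the cell cycle were all higher in *Ywhaz*-positive cells. Of 33 listed genes, 16 were tested, 3 were called higher and 0 lower, and the median log2 fold change was 0.28. Of all genes tested, 0.562% were called higher. Among the 16, 8 had an unadjusted edgeR p under 0.05. *Mki67*, *Top2a*, and the mitotic cyclins were below the filter of a UMI in more than 15% of cells. *Stmn1*, which encodes the microtubule regulator stathmin, was at 23.8, 6.78, and 16.6 CPM against 3.53, 5.20, and 3.603 CPM. The groups did not overlap, but KO library 2 was close in both, and 20.3% of the 290 *Stmn1* UMIs in *Ywhaz*-positive cells came from 1 cell (2.26 ± 0.209, edgeR adjusted p = 3.47e-12). With each gene's highest cell left out of each sum, *Stmn1* was at 1.92 and still called. *Hmgb2*, a chromatin protein abundant in dividing cells, was at 46.0, 35.8, and 39.3 CPM against 29.2, 23.4, and 21.8 CPM, without overlap (0.73 ± 0.1, edgeR adjusted p = 6.29e-07). *Cdkn1a*, the p21 inhibitor of the cycle, was at 154.9, 57.2, and 146.6 CPM against 121.1, 79.1, and 89.1 CPM, which is lower in KO library 2 and higher in the other libraries (0.41, and 0.16 without KO library 3, not called). *Smc4*, a condensin subunit named after its values were seen, was at 0.74. Without the marked cells, no listed cell cycle gene that could be tested was called by edgeR, and *Hmgb2* was at 0.42. The list median was then 0.17, and *Stmn1* fell below the filter, so it was not tested there. *Stmn1* was still called with only the cells highest in other-type markers left out (1.92) and with only the likely doublets left out (2.32). *Hmgb2* (0.41 and 0.67) and *Cdkn1a* (0.19 and 0.49) were called only in the second of these settings.

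**Figure D4:**
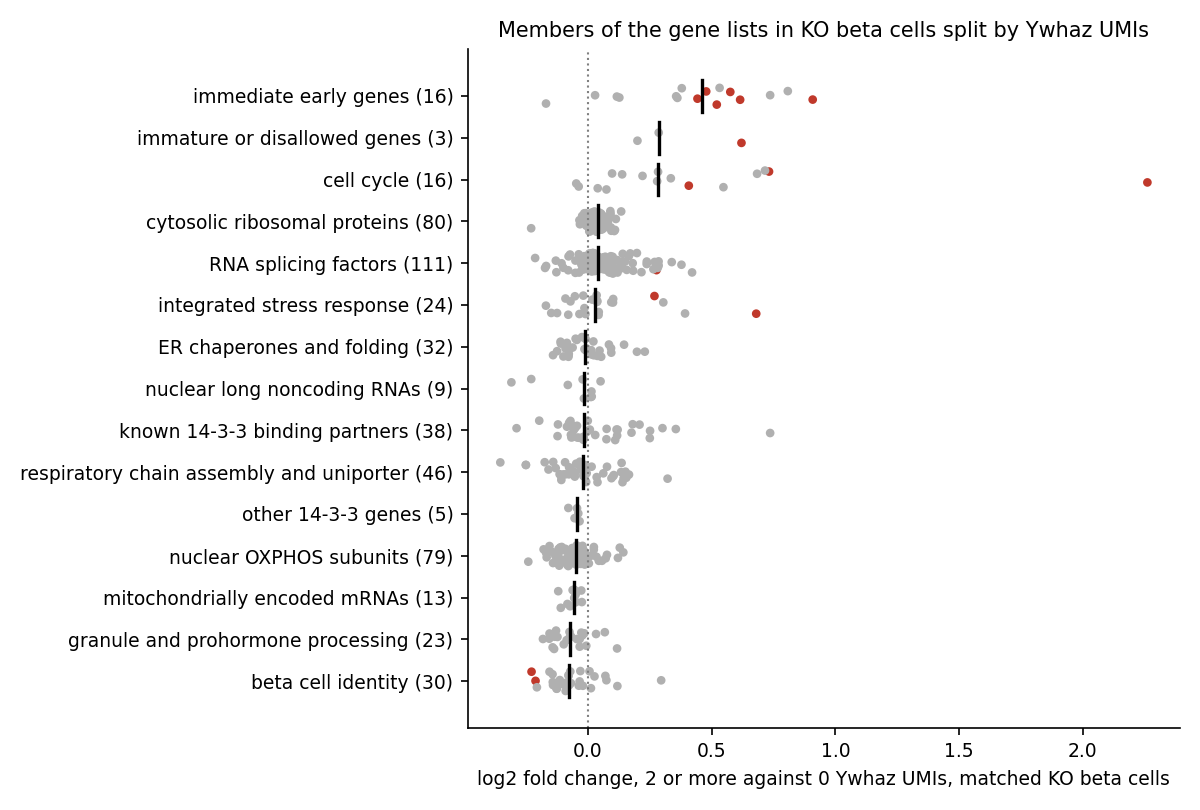
Log2 fold change (x axis) of each tested member of 15 gene lists (rows, with the number tested) in matched KO β cells with 2 or more against 0 *Ywhaz* UMIs; red points are called genes, black bars the list medians, and the dotted line the median of all genes. Immediate early genes lie furthest right with a median of 0.46, whereas nuclear OXPHOS subunits center on -0.05.

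Several of the largest fold changes were of genes better known from other cell types. *Apoe*, the apolipoprotein abundant in macrophages and stellate cells, was at 16.3, 69.7, and 39.1 CPM against 8.18, 13.5, and 5.33 CPM (2.12 ± 0.167, edgeR adjusted p = 5.89e-15), and 41.9% of its 523 UMIs in *Ywhaz*-positive cells came from 1 cell. *Col4a1*, a basement membrane collagen made by islet endothelium, was at 16.6, 19.9, and 29.8 CPM against 10.4, 6.24, and 9.87 CPM, and *S100a6*, a calcium-binding protein of mesenchymal, ductal, and immune cells, was at 24.8, 30.0, and 27.2 CPM against 14.9, 11.4, and 10.8 CPM. The groups did not overlap for *Apoe*, *Col4a1*, and *S100a6*. *Spp1*, a secreted phosphoprotein of duct cells and macrophages, was at 149.1, 38.7, and 23.9 CPM against 52.6, 29.6, and 20.5 CPM (1.08), with 55.4% of its UMIs from 1 cell. Without KO library 1 it was at 0.29 and not called. *Fabp5*, a fatty acid–binding protein, was at 6.17, 18.4, and 30.8 CPM against 4.97, 6.76, and 6.58 CPM (1.61, and 0.76 without KO library 3, not called). *Hilpda*, a lipid droplet protein (1.3999), *Esam*, an endothelial adhesion molecule (1.06), and *Ncapg2*, a condensin II subunit (0.98), were also among the largest rises found in all 3 libraries. *Hilpda* (0.78) and *Ncapg2* (0.52) were not called without KO library 1, and *Esam* was not called without KO library 2 (0.93) or 3 (1.06).

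Most of these fold changes were smaller without the marked cells. Without the cells high in other-type markers or doublet score, *Apoe* was at 0.11, *Col4a1* at 0.15, *Fabp5* at 0.11, *Spp1* at 0.04, and *S100a6* at -0.06, and none was called. *Spp1* is itself among the ductal markers by which cells were left out, so its fall was in part built into this setting. *Hilpda* was at 0.55 and *Ncapg2* at 1.04, neither called, and *Esam* could not be tested. *Igkc*, the immunoglobulin κ constant region of B and plasma cells, had the lowest p of the comparison and was named for that after its values were seen. It was at 0.294, 822.4, and 0.292 CPM against 0, 85.3, and 0.627 CPM, so it came from KO library 2, and 83.5% of its 1702 UMIs in *Ywhaz*-positive cells came from 1 cell (3.24). Without KO library 2 its fold change was -0.09. *Igfbp5*, a secreted binding protein of insulin-like growth factors chosen in the same way, was at 1.69 and turned to -0.54 without the marked cells. *Tmsb4x*, an actin-binding peptide abundant in immune cells, went from 0.58 to 0.06.

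In all, 60 of the 64 called genes could still be tested without the marked cells. Of these, 16 were called again, which is 25% of the 64 and 84.2% of the 19 genes called in that smaller set of cells. They included *Txnip*, *Ins1*, *Ins2*, *Egr1*, *Nfkbia*, *Arrdc3*, and *Fam210b*, and the clock gene *Nr1d1* (0.58, and 0.64 without those cells) and the noncoding *Snhg15* (0.97 and 0.94), the last pair named after their values were seen. *Arrdc3* (0.42), *Nr1d1* (0.31), and *Snhg15* (0.48) were not called without their highest cell, whereas *Txnip* (0.61), *Egr1* (0.48), and *Nfkbia* (0.51) were. *Snhg15* (0.78) and *Nr1d1* (0.52) were not called without KO library 3 either. With each gene's highest cell left out of each sum instead, 39 genes were called, of which 38 were among the 64. Restricting the *Ywhaz*-positive group to cells with 2 to 4 UMIs gave 14 called genes, all among the 64.

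**Figure D5:**
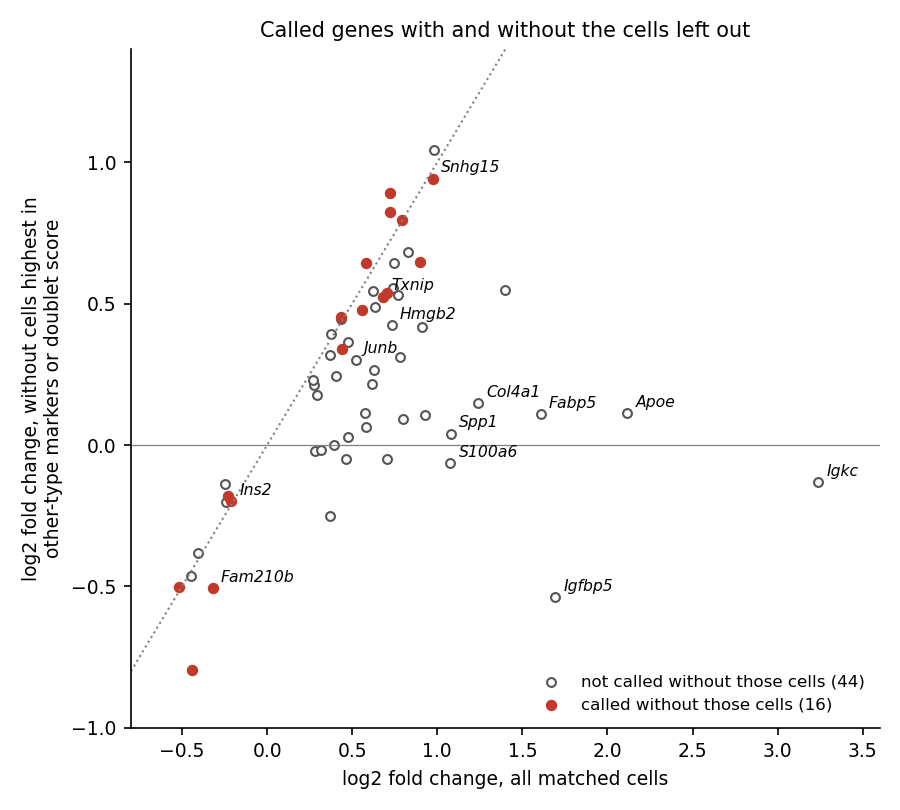
Log2 fold change of the called genes in all matched cells (x axis) and after the cells highest in other-type markers or doublet score were left out (y axis), for the 60 genes that could be tested both ways; filled points were called both times and the dotted line marks equal values. *Txnip*, *Snhg15*, and *Ins2* stay near the line, whereas *Apoe* drops from 2.12 to 0.11 and *Igkc* from 3.24 to -0.13.

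Besides insulin, 7 genes were called lower in *Ywhaz*-positive cells, and none of them was called when cells were matched on UMIs other than insulin. *Bace2*, the β cell protease that cleaves the growth-promoting protein TMEM27, was at 234, 261, and 256 CPM against 287, 316, and 290 CPM, without overlap (-0.24 ± 0.0567, edgeR adjusted p = 0.0164). *Fam210b*, which encodes a mitochondrial membrane protein, was at 66.3, 54.7, and 63.8 CPM against 86.0, 61.4, and 79.9 CPM (-0.32 ± 0.0718, edgeR adjusted p = 0.00793). It was lower in each library and at -0.51, still called, without the marked cells. *Adh1*, an alcohol dehydrogenase that also acts on retinol, was at 33.5, 30.5, and 31.1 CPM against 40.6, 32.8, and 48.2 CPM (-0.41). The remainder were *Gm17767* (-0.45), *Lrrc10b* (-0.25), and a pair that were higher in 1 library and are named after their values were seen, *2410021H03Rik* (-0.52) and *Crybb3* (-0.44). *Bace2*, *Adh1*, *Lrrc10b*, and *Gm17767* were not called without the marked cells (-0.20, -0.38, -0.14, and -0.46), and *Crybb3* turned to 0.16 under the matching on other UMIs. Of the 5 with the same sign in all libraries, none was called without KO library 3, where *Bace2* was at -0.28, *Fam210b* at -0.31, and *Adh1* at -0.23.

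The other 14-3-3 genes had no difference between the groups that passed the test. *Ywhae* was at 256, 277, and 257 CPM in *Ywhaz*-positive and 277, 277, and 266 CPM in *Ywhaz*-negative cells (-0.05 ± 0.0567). *Ywhaq* was at 202.3, 235, and 203 CPM against 204.7, 236, and 219.2 CPM (-0.04). *Ywhab*, *Ywhag*, and *Ywhah* had log2 fold changes of -0.03, -0.08, and -0.04. None of the 5 tested was called by edgeR or DESeq2 or had an unadjusted p under 0.05, and *Sfn* was below the filter. Of the 5, 0 had a positive log2 fold change and 3 were lower in all 3 libraries, against 15.1% of all genes tested. Without TMM factors the median of the 5 changed from -0.04 to 0.06. Of 38 tested genes for known 14-3-3 binding partners, 0 were called by edgeR and 2 had an unadjusted p under 0.05. *Zfp36*, the mRNA-destabilizing protein tristetraprolin, was at 9.84, 13.6, and 9.64 CPM against 7.54, 6.24, and 4.86 CPM (0.74, edgeR adjusted p = 0.0642), and *Foxo1*, a transcription factor held in the cytoplasm by 14-3-3 proteins, was at -0.12.

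Genes for the mitochondrial respiratory chain, which the study related to the deletion, were compared in the same way. *Uqcc2*, a factor in the assembly of complex III, was at 349, 501, and 405 CPM against 365, 544, and 425 CPM (-0.08 ± 0.0534). *Atp5g1*, part of the membrane ring of ATP synthase, had 267, 373, and 274 CPM against 263, 453, and 277 CPM (-0.07), and *Ndufa4*, a subunit of the cytochrome oxidase complex, was at 171, 276, and 189 CPM against 176, 295, and 185 CPM (-0.03). *Smdt1*, a subunit of the calcium uniporter, was at 166, 238, and 187 CPM against 180, 285, and 191 CPM (-0.11, edgeR adjusted p = 0.709). None of these was called, and their values in the groups overlapped. Of 79 tested nuclear genes for OXPHOS subunits, 0 were called by edgeR and 8 had an unadjusted p under 0.05. Their median was -0.05, or 0.06 without TMM factors, and 30 were lower in all 3 libraries, against 15.1% of all genes tested. Of 13 mitochondrially encoded mRNAs, 0 were called by edgeR and 1 had an unadjusted p under 0.05 (median -0.06, or 0.05 without TMM factors). Of 46 genes for respiratory chain assembly and the uniporter, 0 were called by edgeR, with 1 at an unadjusted p under 0.05.

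Splicing factors and ribosomal protein genes were at most slightly displaced. Of 111 tested splicing factors, *Srsf3*, an SR protein, was called (97.8, 147, and 106 CPM against 80.7, 122, and 88.2 CPM, 0.28 ± 0.0628, edgeR adjusted p = 0.00901), and 14 had an unadjusted p under 0.05. The list median was 0.04, and 30 members were higher in all 3 libraries, against 12.8% of all genes tested. Without the marked cells *Srsf3* was at 0.21 and no splicing factor was called by edgeR, and it was not called without KO library 1 or 3 (both 0.28). Of 80 genes for cytosolic ribosomal proteins, 0 were called by edgeR and 3 had an unadjusted p under 0.05, with a median of 0.04 that became -0.04 without the marked cells. In the main test 68 of the 80 had a positive log2 fold change, against 4853 of the 9786 genes tested, and 14 were higher in all 3 libraries. Their share of UMIs was higher in *Ywhaz*-positive cells in 3 of 3 libraries, by 0.305 ± 0.0898 points (SD, exact sign-flip p = 0.25). Of 32 tested ER chaperones and folding enzymes, 0 were called by edgeR and 6 had an unadjusted p under 0.05, with *Hspa5*, the chaperone BiP, at 0.15. Of 24 tested genes of the integrated stress response list, 2 were called higher, *Txnip* and *Ddit3*, which encodes the stress-induced factor CHOP, and 6 had an unadjusted p under 0.05 (median 0.03). *Ddit3* was at 145.3, 66.4, and 164.3 CPM against 127.0, 75.9, and 118.9 CPM, higher in 2 of the 3 libraries (0.27 ± 0.0687, edgeR adjusted p = 0.0381). It was not called without the marked cells (0.23) or without KO library 3 (0.10).

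Hormone transcripts of other islet cells were low in both groups, as the gate requires. *Gcg* was at 490, 1097, and 623 CPM against 513, 1187, and 561 CPM and was not called. *Sst*, the somatostatin gene, was at 163, 146, and 174 CPM against 102, 167, and 163 CPM (0.25, edgeR adjusted p = 0.128), and was called without the marked cells (0.37). *Pyy*, the peptide YY gene of PP and other endocrine cells, was called higher (0.70 ± 0.124, edgeR adjusted p = 0.000146). It was at 353, 379, and 233 CPM against 99.0, 279, and 253 CPM, which is higher in 2 of the 3 libraries, and was called again without the marked cells (0.54) but not without its highest cell (0.42) or without KO library 1 (0.13). *Rbp4*, a retinol carrier among the delta cell markers, was at 18.2, 21.8, and 21.2 CPM against 8.82, 15.1, and 16.4 CPM (0.63) and was not called without those cells (0.49) or without KO library 1 (0.42).

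WT β cells gave a measure of what a split by *Ywhaz* UMIs does where no allele was deleted. The same split left 17, 7, and 12 matched pairs of WT cells, since so few had no *Ywhaz* UMI. The WT cells with 0 UMIs were unlike the others: their median insulin share was 73.0%, 54.7%, and 44.3% against 42.6%, 33.9%, and 33.9% in their partners, and in WT library 1 they had 1821 detected genes after thinning against 4041. Of 9128 genes tested in WT, 20 (0.219%) were called, and the difference of the split between KO and WT was called for 44 of 9732 genes (0.452%). *Txnip* was at -0.62 in WT, and its difference was 1.23 ± 0.247 (edgeR adjusted p = 0.00826). The difference was not called for *Ins1*, *Ins2*, *Junb*, *Egr1*, *Nfkbia*, or *Hmgb2*.

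Because of those small groups, WT cells were also split by level after the data were seen, into cells with 5 or more and cells with 2 or 3 *Ywhaz* UMIs after thinning (110, 192, and 186 matched pairs). Here 51 of 9788 genes were called (0.521%), 17 higher and 34 lower in the cells with more *Ywhaz*. *Ins1* and *Ins2* were again lower (-0.31 ± 0.0456 and -0.26 ± 0.0474, both called), with an insulin share of 34.4%, 37.1%, and 36.2% against 39.6%, 40.7%, and 38.8%. For this pair of genes the difference between the KO and the WT split was 0.08 ± 0.0588 and 0.05 ± 0.0515 and was not called. The thinned number of detected genes was also higher in the WT cells with more *Ywhaz*, by 183.7 ± 74.5 genes (SD, n = 3, positive in 3 of 3 libraries), next to 170.7 in KO.

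Of the genes called in KO, a part had no like change in the WT split by level. The difference between the KO and the WT split was called for 18 of 9789 genes (0.184%). *Txnip* was at -0.15 ± 0.0648 in WT, a difference of 0.83 ± 0.103 (edgeR adjusted p = 6.16e-06). *Hmgb2* was at -0.03 in WT, with a difference of 0.76 ± 0.13 (edgeR adjusted p = 0.00201), and *S100a6* was at 0.01, with a difference of 1.07 ± 0.198 (edgeR adjusted p = 0.00562). *Col4a1* was called higher in WT too (0.68), and its difference was not called (0.56 ± 0.263). *Egr1* was at 0.03 in WT, and its difference of 0.42 ± 0.097 did not pass (edgeR adjusted p = 0.0605). The immediate early list had a median of 0.13 in WT and none of its members was called there by edgeR. The KO sums of these tests include the marked cells, without which *S100a6* (-0.06) and *Hmgb2* (0.42) were not called in KO. The share of likely doublets differed by 9.14 ± 11.0 points (SD, n = 3) between the KO groups and by 0.763 ± 2.06 points between the WT groups. In KO libraries 1 to 3 it was 4.23%, 26.1%, and 5.07% in *Ywhaz*-positive and 0%, 4.35%, and 3.62% in *Ywhaz*-negative cells, so KO library 2 gave most of the KO difference. The difference from the WT split by level was not tested without the marked cells. The groups of the KO and the WT split by level differ in their *Ywhaz* counts by construction, so the values compare 2 unequal ranges of the transcript.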

How the data were processed

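Single-cell RNA-Seq counts of 3 KO and 3 WT islet libraries (1 per mouse) were analysed. The authors deposited, for each library, whole-number counts of UMIs per gene and barcode, without normalization; per the submitters' processing notes they were made with Cell Ranger 6.0.2 against mm10, with Seurat used downstream. Total depth was 74083947 to 98294915 UMIs per library. No column was left unmapped (0). Barcodes shared between any pair of libraries numbered 7 to 27, and 1 was shared between gated cells of KO library 2 and WT library 3.

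Cells were gated as in the report, and each *Ywhaz*-positive cell, from the deepest down, was matched to an unused *Ywhaz*-negative cell of its library within 5% of its UMIs. Sums per library and group were tested with edgeR 4.0.16 (R 4.3.3, glmQLFit and glmQLFTest, TMM, library as a block, Benjamini-Hochberg adjustment), keeping genes detected in over 15% of the matched cells, both groups pooled. *Ywhaz* was left out of the test. DESeq2 1.42.0 was the alternative tool. Both groups of a pair come from the same mouse. Deviations from the group means correlated across genes at 0.402, 0.377, and 0.202 within KO libraries 1 to 3, and at -0.361 to 0.0892 between libraries. Replicate numbers do not pair KO with WT mice. The edgeR p-values use a dispersion (spread beyond counting error) estimated partly from all genes together. For a single gene they need not measure the spread of its within-mouse difference over 3 mice. *Igkc* had the lowest p although its difference came from KO library 2.

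Scrublet (scanpy 1.11.5, Python 3.11.15) had an automatic threshold that marked at least 0.5% of barcodes in KO library 2 only, so the top 0.8% per 1000 barcodes of each library were taken. Thinning to 20000 UMIs used a fixed seed. Gene identifiers were matched to GENCODE vM21 on GRCm38 (32235 of 32285); a listed symbol with several identifiers (*Ddit3*) was taken as the lowest, from which coordinates and exon sequence come. The 3′ assay was read per gene, and *Ins1* with *Ins2* and genes with near-identical copies can share reads.

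The text names, by a rule, the other 14-3-3 genes, 4 genes of the study, up to 10 called genes in each direction with the largest change that had the same sign in all 3 libraries, up to 4 genes of lowest p per list, the 3 of lowest p in the KO to WT difference, and *Ins1*, *Ins2*, and *Iapp*; others are said to be named after their values were seen. A gene named by this rule is not reported here. The cells compared and the gene lists were chosen with earlier results of these data known. In counts simulated for the KO comparison (9786 genes, 200 changed), the fit called 26% of genes changed 1.25-fold, 64% at 1.5-fold, 90% at 2-fold, and 100% at 3-fold, with 4 false calls. The simulated counts had the same dispersion for all genes. They held no doublets and no single cell with a large part of a gene's UMIs, so these rates do not cover such cells. To leave out marked cells, likely doublets were removed first and then the top 10% of the rest by other-type markers. This setting, the range of 2 to 4 *Ywhaz* UMIs, leaving out each gene's highest cell, and the WT split by level were chosen after seeing the data. The other alternatives were the tool, scaling, filter, matching, block, *Ywhaz* threshold, marker, doublet and mitochondrial limits, and each library left out.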

Additional observations from a re-analysis of the deposited data

Results flagged for a closer look

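The difference of the *Ywhaz* split between KO and WT was itself tested with edgeR, and named genes past its threshold are given as the KO minus WT log2 fold change. With 2 or more against 0 UMIs in both genotypes, *Txnip* differed by 1.23, *Jun* by 1.46, *Srsf3* by 1.09, *Pyy* by 1.58, *Smc4* by 2.14, *Ddit3* by 1.22, *Igkc* by 3.19, and *Igfbp5* by 4.35. The differences were negative for *Fam210b* (-1.19), *Adh1* (-1.49), *Spp1* (-2.88), and *Apoe* (-3.72). *Dapl1* (2.96) and *Herpud1* (1.57) had the lowest p of this comparison, followed by *Spp1*, and were not called in KO. They were at 0.08 and 0.09 in KO and at -2.57 and -1.55 in WT, where the groups held 17, 7, and 12 pairs of cells.

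With the WT split by level, chosen after the data were seen, the differences were 1.72 for *Fabp5*, 1.07 for *S100a6*, 0.83 for *Txnip*, 0.76 for *Hmgb2*, 1.15 for *Snhg15*, 0.70 for *Nr1d1*, 0.86 for *Klf6*, 1.02 for *Tmsb4x*, 4.97 for *Igkc*, and 4.02 for *Apoe*. *Apoe* thus had opposite signs of difference under the 2 WT splits. Only *Txnip* and *Igkc* passed in the same direction under both. In KO cells with 2 or more *Ywhaz* UMIs, 83.5% of the *Igkc* UMIs came from 1 cell. The differences given here under both WT splits include the marked cells.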

How the results depend on the processing

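The 64 genes called in KO became 7 with DESeq2, 165 without TMM factors, 379 without a filter, 100 with unmatched cells, 23 with 1 or more *Ywhaz* UMIs, 26 without the top 10% by other-type markers, 14 with 2 to 4 UMIs, 19 without either marked class, 39 without each gene's highest cell, and 34 to 65 with a library left out (34 without library 3). Without the library as a block, edgeR called 0 genes (229 at an unadjusted p under 0.05, against 89 at that p with DESeq2 and the block). In WT the 20 called genes became 4 with DESeq2, 31 without TMM factors, 33 without a filter, 7 matched on UMIs other than insulin, 12 thinned, 1 without the block, 6 without that top 10%, 13 at 5% mitochondrial UMIs, 11 without either marked class, 7 without the highest cell, 51 split by level, and 8 to 23 with a library left out. The 44 differences became 20, 688 without TMM factors (6 positive), 68 unmatched, 21 matched on other UMIs, 26 thinned, 0 without the block (671 at an unadjusted p under 0.05), 90 with 1 or more and 24 with 3 or more UMIs, 27 without that top 10%, 114 at 5% mitochondrial UMIs, 24 with 2 to 4 UMIs, 99 without the highest cell, 18 with WT by level, and 3 to 90 with a library left out (3 without library 1, 90 without library 3).

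The gain in detected genes (170.7) was 99.2 unmatched, 25.3 matched on other UMIs, 135.3 without that top 10%, and 118.0 without doublet calls. The insulin difference was -2.001 unmatched and -0.576 matched on other UMIs. With a library left out these ran from 163.8 to 175.0 genes and from -4.47 to -3.605 points. The mitochondrial difference was -0.238 and -0.134 in the same settings, and the other-type marker difference fell from 0.0392 to 0.00488 points without that top 10%. Cells were left out on this same marker share, so a fall was built in. The share of *Ywhaz*-positive cells (14.9%) was 6.57% thinned and 44.8% with 1 or more UMIs.

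Signs turned for *Apoe* (-0.14) and *Ins1* (0.00119) matched on other UMIs, for *Rbp4* (-0.30) thinned, for *Igkc* without library 2 (-0.0924, against 3.28 without library 3 at the other end) and without either marked class (-0.13), for *Igfbp5* (-0.49 and -0.54), *S100a6* (-0.13 and -0.0635), and *Spp1* (-0.18, top 10% only) without that top 10% and without either class. The cause was not tested, and *Spp1* is itself among the markers that defined that top 10%. Of the other values of the 39 called named genes, 385 stayed called and 278 kept their sign but were not called.

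Small sums limit the comparison: 349 pairs in KO, 36 in WT, and 3 mice each. Changes below 1.5-fold would often be missed, and counts of 0 to 3 *Ywhaz* UMIs per cell sort cells with much error.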
